A study of Mus musculus with 10 samples.

Results

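The genes described here are 32 chaperones, folding enzymes and stress response genes of the heat shock and unfolded protein pathways, read in regulatory T cells (Tregs) of mouse colon. They were chosen by gene name from a fixed list, made with earlier results of these data known. All 32 were found among the 54532 genes of the deposited count table. Of these, 31 had enough reads to be tested, and Chac1 did not pass the filter on low counts. Smart-seq2, which amplifies whole cDNA from small amounts of RNA, was used for 10 libraries of cells sorted as CD45+CD3+CD4+CD25+GFP+. The 5 Tumor libraries came from colon tumours of Apc Min/+ Foxp3 DTR mice, and the 5 WT libraries from Foxp3 DTR mice with tissue labelled colon. All mice were male C57BL/6 animals aged 16 weeks. Apc Min/+ is a germline allele that truncates the Wnt pathway inhibitor Apc, and both groups carry Foxp3 DTR, a diphtheria toxin receptor expressed under Foxp3. No toxin treatment is named in the labels. Tumour tissue and the Apc allele go together in these groups, so their contributions cannot be told apart. Whether each library is a separate animal is not stated in the labels, so p-values measure only the spread between these libraries, which may be technical.

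Proteins that enter the endoplasmic reticulum (ER) are folded by chaperones such as BiP, and unfolded chains there activate the sensors IRE1, PERK and ATF6. IRE1 splices the mRNA of Xbp1, ATF6 is released as a transcription factor, and PERK phosphorylates eIF2alpha, which slows translation and favours ATF4. In the cytosol, misfolded protein frees the factor HSF1 from chaperones, and HSF1 then induces HSP70, HSP90 and their co-chaperones. Activated lymphocytes enlarge their folding machinery as they grow and secrete, and tissue digestion and sorting can also induce heat shock genes.

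Some of these promoters hold the known motifs of the pathways, and the stretches below are shown because they carry the element of each response arm. RefSeq promoters (GRCm38.p6, 250 bases before to 50 after a start site) were matched by symbol for 28 of the 32 genes, and none was matched for Hspa8, Hsp90aa1, Hsp90ab1 and Manf. Each motif was searched on both strands. The ER stress response element is CCAAT and CCACG with any 9 bases (N) between them, bound by ATF6 together with NF-Y. It was found in 7 of the 28 genes and in 39 of 32544 promoters, or 0.120% (0.138% of all genes with a promoter). All 7 are ER folding genes, of 12 with a promoter. Capitals mark the motif, and each stretch is written 5′ to 3′ on the strand of the gene.
Hspa5 (chr2:34772020-34772049, plus strand): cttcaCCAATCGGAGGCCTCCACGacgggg
Hsp90b1 (chr10:86705525-86705664, minus strand): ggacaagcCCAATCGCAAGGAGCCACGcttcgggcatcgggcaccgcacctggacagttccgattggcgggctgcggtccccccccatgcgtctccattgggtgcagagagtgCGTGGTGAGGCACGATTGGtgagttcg
Calr (chr8:84847067-84847101, minus strand): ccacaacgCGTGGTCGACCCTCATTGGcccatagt
Canx (chr11:50325792-50325826, minus strand): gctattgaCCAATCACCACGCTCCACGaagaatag
Creld2 (chr15:88819512-88819546, plus strand): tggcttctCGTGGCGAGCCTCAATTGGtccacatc
Dnajc3 (chr14:118937819-118937853, plus strand): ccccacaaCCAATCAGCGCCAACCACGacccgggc
Pdia6 (chr12:17266483-17266517, plus strand): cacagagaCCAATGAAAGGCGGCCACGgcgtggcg

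In Hspa5 the match ran from base -65 to base -47, counted from the start site. Hsp90b1 held 2 matches, and the second lies on the opposite strand, as do those of Calr and Creld2. A shorter form has ATTGG and CCACG with any 1 base between them. It was found in Herpud1 and Dnajb11, and in 12 of 32544 promoters (0.0369%, or 0.0449% of genes). The ATF4 motif TGATGNAA was found in Herpud1, Asns, Chac1 and Trib3, and in 3.91% of all promoters (4.44% of genes). The heat shock element has GAA, TTC and GAA with any 2 bases between neighbours. It was found in Hsph1, Hspd1 and Hspe1, and in 0.608% of promoters (0.669% of genes). Only exact matches to these patterns were counted, so a gene without a match may still hold a variant of an element. In Herpud1 below the first capitals mark the ATF4 motif and the second the short ER element, in Asns and Chac1 they mark the ATF4 motif, and in Hspe1 they mark 2 overlapping heat shock elements.
Herpud1 (chr8:94386309-94386394, plus strand): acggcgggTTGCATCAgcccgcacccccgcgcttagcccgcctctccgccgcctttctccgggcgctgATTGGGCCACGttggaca
Asns (chr6:7693217-7693240, minus strand): cagccacaTGATGAAActtcccgc
Chac1 (chr2:119351041-119351064, plus strand): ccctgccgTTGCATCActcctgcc
Hspe1 (chr1:55088055-55088080, plus strand): tccgTTCTAGAACCTTCCGGAAggcc

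Hspd1 and Hspe1 lie head to head, and the printed element of Hspe1 is the same stretch of DNA that holds the Hspd1 matches. The stretches of Hspa5 and Asns lie upstream of the RefSeq start site but inside the first exon, untranslated, of GENCODE M21 transcripts, and the Hspe1 stretch overlaps the first exon of Hspd1. A match describes letters in these windows and is no measurement of binding.

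Library-wide features bear on every value that follows. Tumor libraries held 3054435 to 7747699 counts and WT libraries 1676229 to 8412887. The 12 T cell genes, Foxp3 among them, had reads in all 10 libraries, and their sum was 3864 to 5661 CPM (counts per 1000000 counts of the library) in Tumor and 145 to 1244 CPM in WT. Sums of 12 epithelial genes were 22534 and 31567 CPM in WT replicates 1 and 2, 136 to 214 CPM in WT replicates 3 to 5 and 33.4 to 4563 CPM in Tumor. The 12 plasma cell genes, a type with a large ER, reached 17575 CPM in WT replicate 3 and 197 to 3252 CPM in the other 9 libraries, and macrophage genes gave 1321 to 6099 CPM in Tumor and 66.6 to 164 CPM in WT. The macrophage genes were not uniform. Lyz2, C1qa, C1qb, C1qc, Apoe, Cd68 and Spp1 lay entirely higher in Tumor, while Csf1r, Adgre1, Fcgr1, Cd14 and Mrc1 overlapped between groups. The single predicted gene Gm10800 took 9.92%, 22.3% and 26.5% of all counts in WT replicates 3, 4 and 5 and 0.844 to 5.77% in the other 7 libraries. Genes with any read numbered 27720 to 38316 in Tumor, and 42867, 37872, 33943, 41576 and 44194 in WT replicates 1 to 5. The shallow WT replicates 4 and 5 thus had reads on more genes than any Tumor library. No gene of the marker lists was at 0 in all libraries of a group. The sort genes Ptprc, Cd3d, Cd3e, Cd3g, Cd4 and Il2ra were lower in every WT library than in every Tumor library, Foxp3 stood at 36.9 to 148 CPM in Tumor and 3.87 to 39.7 CPM in WT on TMM scaling, and Apc, where Min is a point mutation that gene counts do not check, did not pass (edgeR, adjusted p = 0.983). The part of these library differences in the values below was not tested. In sorted bulk samples, fewer cells of a type and less RNA per cell cannot be told apart.

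**Figure D1:**
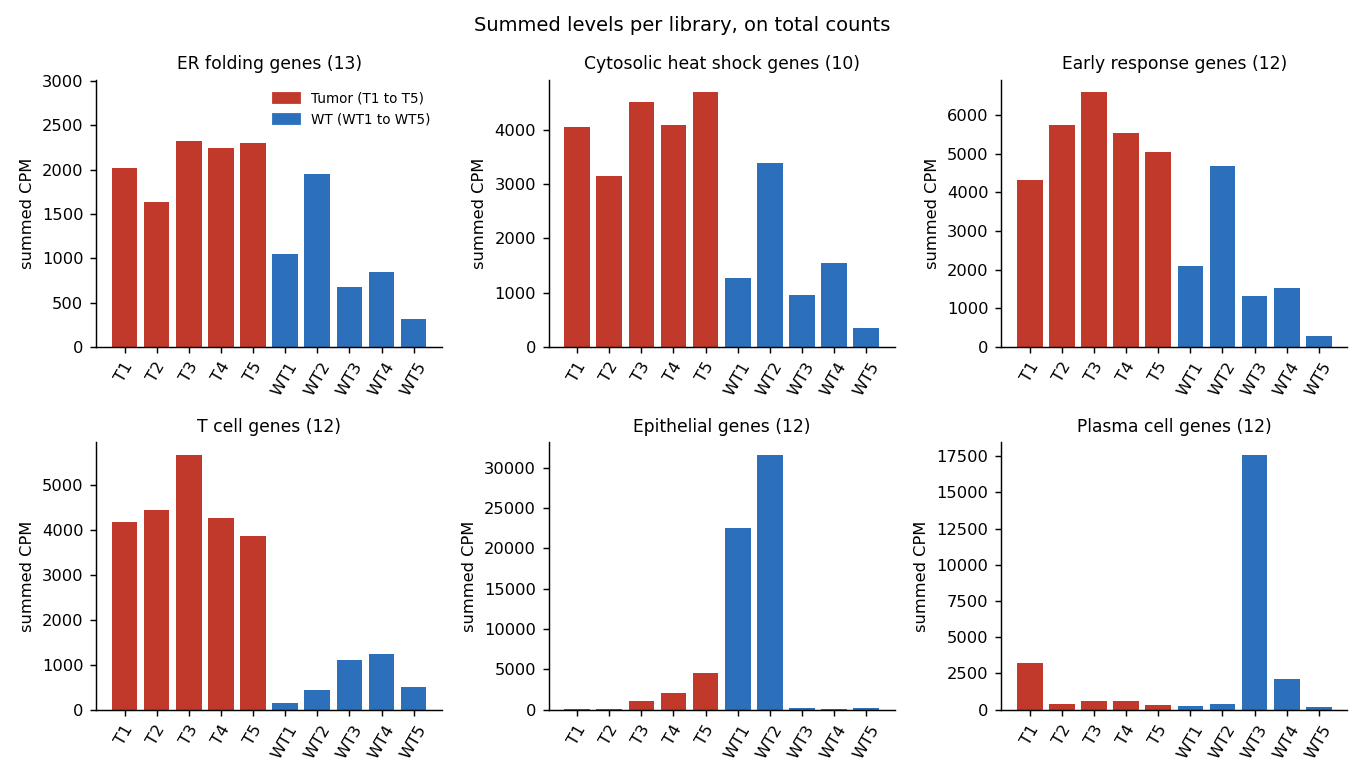
Summed CPM on total counts (y axes, linear from 0) in each of the 5 Tumor (T1 to T5) and 5 WT libraries for the ER folding genes, the cytosolic heat shock genes and 4 marker lists. WT replicate 2 holds 1945 CPM of ER folding genes, inside the Tumor range of 1637 to 2317, while the other WT libraries hold 312 to 1052.

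The comparison asks how these genes differ between Tregs from colon tumours of Apc Min/+ Foxp3 DTR mice and Tregs from colon of Foxp3 DTR mice. No gene of the 31 tested passed (edgeR quasi-likelihood test, Benjamini-Hochberg adjusted over all genes, adjusted p from 0.120 to 0.929), where 1.59% of the 21414 tested genes did (1.37% higher and 0.219% lower in Tumor). At an unadjusted p below 0.05 there were 8 of 31 genes, against 16.1% of all tested genes. DESeq2 called 2, Ppp1r15a and Dnaja1, and limma voom called 1, Ppp1r15a, where these tools called 7.71% and 2.24% of all genes. Dropping the low count filter called Ppp1r15a alone (1.60% of all genes). All 29 members with a positive log2 fold change (Tumor minus WT) had the higher group mean in Tumor, and Asns and Hspb1 had negative values. Of all tested genes, 43.8% had a positive value. The median over the 31 genes was 1.21, beside -0.20 over all tested genes. For Hspa5, Hsp90aa1, Hsph1 and Dnaja1, or 12.9% of those tested, the lowest Tumor value exceeded the highest WT value, where 4.38% of all tested genes did so. None lay entirely lower in Tumor (1.57% of all genes, 5.94% in either direction). Shares of all tested genes, here and below, are not matched to the expression level of the members.

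**Figure D2:**
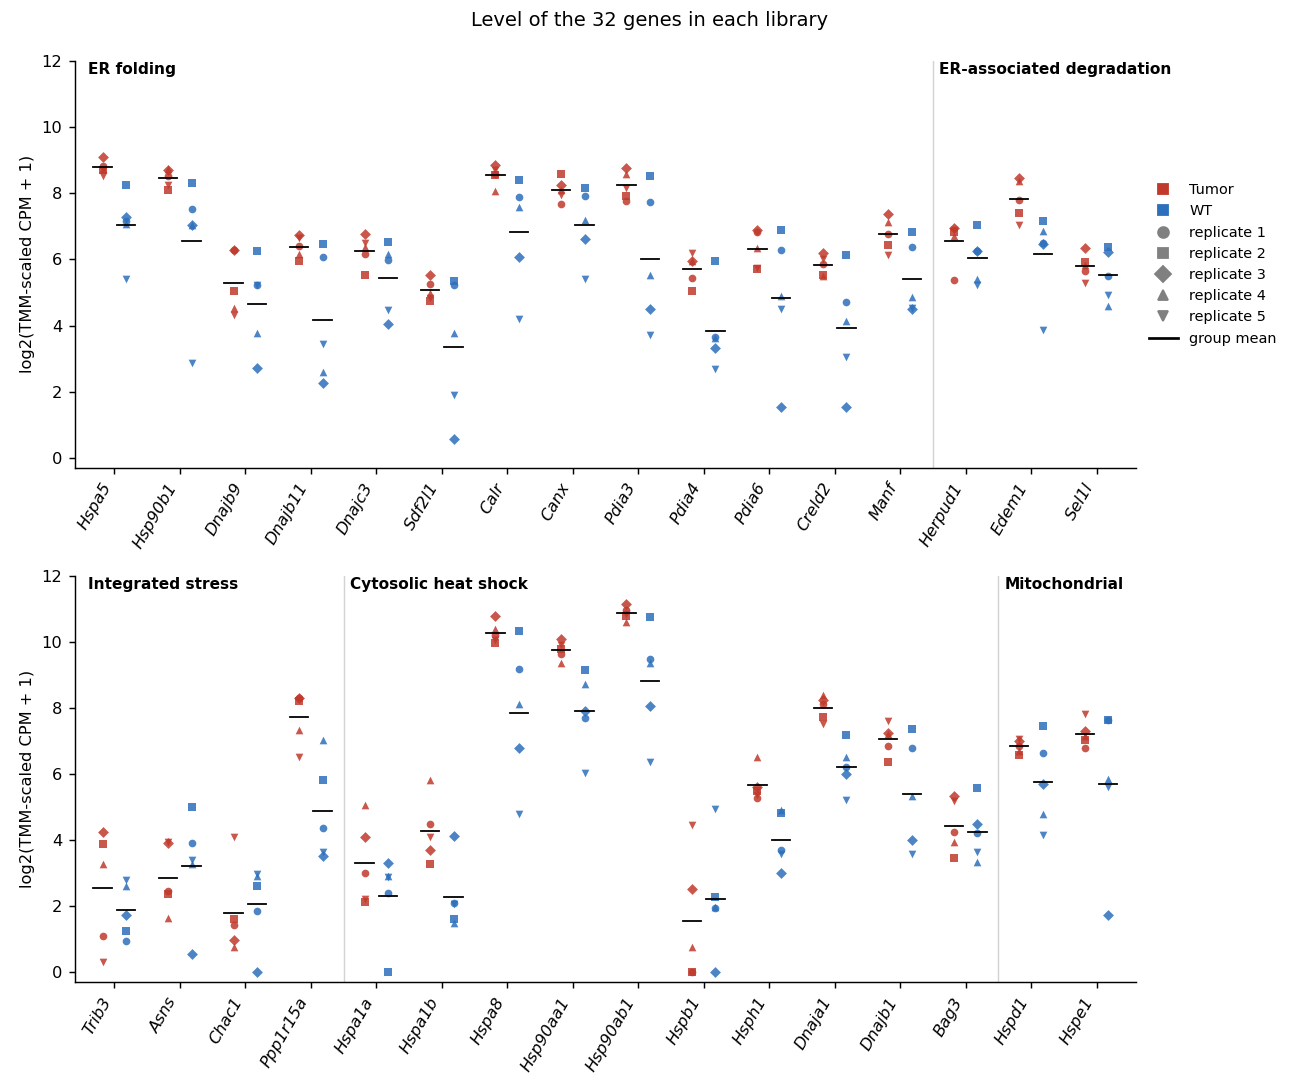
Level of each of the 32 genes in each library as log2(TMM-scaled CPM + 1) (y axis), Tumor in red and WT in blue, with a marker shape for each replicate number and a bar for the group mean. Most ER and cytosolic chaperones show tight Tumor values and WT values that spread downward, with WT replicate 2 near the Tumor libraries.

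The direction depends on what a library is scaled to. With each library scaled to 11 T cell genes, all 31 values were negative, from -4.31 for Asns to -0.62 for Ppp1r15a, and 22 genes were called lower, where 91.9% of all genes were called. The median of all tested genes moved to -3.69 under that scaling and to -0.38 with RLE factors. The median of the members lay 1.17 and 1.44 above these, and 1.41 above on TMM. A change of scaling shifts nearly all genes together, so this gap could hardly change and is no separate support for a difference. The values in the following paragraphs are on TMM scaling (trimmed mean of M values), and the plot of fold changes gives both scalings.

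**Figure D3:**
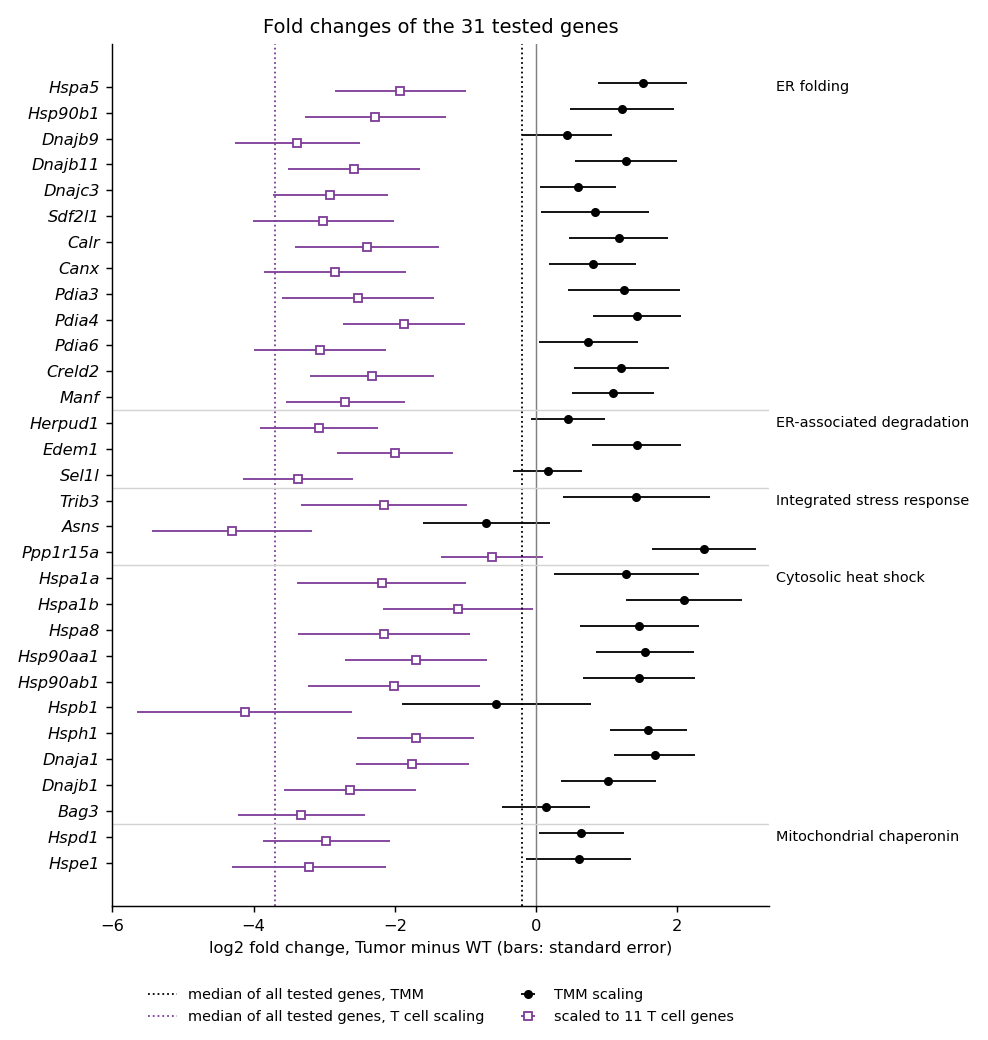
Log2 fold change, Tumor minus WT, with standard error (x axis) for the 31 tested genes (y axis), on TMM scaling (black) and scaled to 11 T cell genes (purple); dotted lines are medians over all tested genes. Of 31 genes, 29 lie to the right of the all-gene median under either scaling, a count that a shift of all genes together could hardly alter.

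ER chaperones and folding enzymes made up 13 of the genes, and all 13 had positive log2 fold changes, beside 43.8% of all tested genes. They ran from 0.44 for Dnajb9 to 1.51 for Hspa5, with a median of 1.17 and 0 of 13 called. At an unadjusted p below 0.05 there were 2, Hspa5 and Pdia4, or 15.4%, near the 16.1% of all tested genes. Hspa5 (ENSMUSG00000026864, mm10 chromosome 2, 34771970 to 34777547, plus strand) encodes BiP, the HSP70 of the ER lumen that holds the stress sensors inactive. Its level was 453, 421, 547, 428 and 367 CPM in Tumor replicates 1 to 5 and 142, 304, 156, 134 and 41.3 CPM in WT replicates 1 to 5. The groups did not overlap, and the nearest libraries were Tumor replicate 5 and WT replicate 2. The means were 443 ± 65.9 and 155 ± 94.4 CPM (SD, n = 5), and the log2 fold change was 1.51 ± 0.63 (SE), not passing with edgeR (adjusted p = 0.250).

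Calr encodes calreticulin, a calcium-binding lectin chaperone, and had the highest level per kilobase of gene length in this set, 132 CPM per kilobase in Tumor and 58.7 in WT (ENSMUSG00000003814, chromosome 8, 84841850 to 84846934). It stood at 381, 375, 466, 266 and 414 CPM in Tumor and at 235, 336, 66.2, 191 and 17.2 CPM in WT. WT replicate 2 lay above Tumor replicate 4, so the groups overlapped, and the log2 fold change of 1.17 ± 0.70 did not pass (edgeR, adjusted p = 0.417). Hsp90b1, the ER form of HSP90 known as GRP94, gave 271 to 422 CPM in Tumor and 6.35 to 316 CPM in WT, with 14 reads in WT replicate 5. Canx, the membrane-bound partner of calreticulin, gave 205 to 383 and 41.3 to 284 CPM.

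The protein disulfide isomerases, which form and rearrange disulfide bonds, differed widely within WT. Pdia3 stood at 218 to 431 CPM in Tumor and at 212, 367, 21.6, 45.5 and 12.2 CPM in WT replicates 1 to 5. WT replicates 1 and 2 were thus close to or within the Tumor range and the other 3 were well under it. Pdia4 stood at 31.9 to 72.7 CPM in Tumor, at 61.1 CPM in WT replicate 2 and at 5.44 to 11.5 CPM in the other WT libraries. Its log2 fold change of 1.43 ± 0.63 (edgeR, adjusted p = 0.271) became 2.55 and was called without WT replicate 2 (adjusted p = 0.0296, with 0.0145 to 0.9996 over all alternatives, 1.72% of all genes called). Pdia4 was also called higher without WT replicates 1 and 2, and lower when scaled to T cell genes. Pdia6 gave 51.0 to 118 CPM in Tumor and 1.88 to 117 CPM in WT.

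The J-domain co-chaperones of BiP were read at lower levels. Dnajb11, which delivers unfolded chains to BiP, had 60.9 to 105 CPM in Tumor, 66.0 and 87.5 CPM in WT replicates 1 and 2 and 3.76 to 9.98 CPM in WT replicates 3 to 5. Dnajc3, also a co-chaperone and known as p58IPK, had 45.2 to 107 and 15.5 to 91.9 CPM, and Dnajb9, which promotes BiP binding to IRE1, had 18.8 to 77.0 and 5.63 to 75.5 CPM. Log2 fold changes were 1.27 ± 0.72, 0.60 ± 0.54 and 0.44 ± 0.64 (edgeR, adjusted p = 0.389, 0.601 and 0.763). Sdf2l1, a partner of Dnajb11, had 62 to 278 reads in Tumor and 1 read in WT replicate 3, and its values of 25.7 to 45.1 CPM in Tumor overlapped 0.469 to 39.8 CPM in WT. Creld2 and Manf, secreted or ER-resident proteins induced by ER stress, gave 1.21 ± 0.67 and 1.09 ± 0.58 (adjusted p = 0.380 and 0.359). The annotated span of Manf shares 42681 bases with Dcaf1 on the other strand, and the strand setting of the counting is not given in the sources used here.

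ER-associated degradation removes misfolded chains through the membrane to the proteasome. The 3 genes of this step had log2 fold changes of 1.43 ± 0.63 for Edem1, 0.46 ± 0.53 for Herpud1 and 0.17 ± 0.49 for Sel1l (edgeR, adjusted p = 0.277, 0.690 and 0.891). Edem1, a lectin-like factor that extracts misfolded glycoproteins (chromosome 6, 108828641 to 108859356), stood at 224, 169, 354, 327 and 130.1 CPM in Tumor and at 88.5, 142, 88.3, 116 and 13.6 CPM in WT. Only WT replicate 2 reached the Tumor range, passing Tumor replicate 5. Herpud1, a membrane scaffold of the degradation complex whose promoter is printed above, stood at 40.2, 113, 122, 103 and 119 CPM in Tumor and at 74.9, 132, 76.1, 41.9 and 36.7 CPM in WT. Here Tumor replicate 1 sat at the low end with WT replicates 4 and 5, and WT replicate 2 was the highest of all 10. Sel1l, the adaptor of the ubiquitin ligase, gave 38.3 to 80.8 CPM in Tumor and 23.3 to 82.2 CPM in WT, and its 74.2 CPM in WT replicate 3 came from the library with the most plasma cell RNA. The part of plasma cell RNA in that value was not tested. The sign of Sel1l turned negative with RLE factors (-0.021) and on total counts (-0.088).

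Genes of the integrated stress response, the arm that runs through eIF2alpha and ATF4, had log2 fold changes of both signs. Ppp1r15a encodes GADD34, the phosphatase subunit that restores translation by dephosphorylating eIF2alpha, and it is also an early response gene (ENSMUSG00000040435, chromosome 7, 45522916 to 45526268, minus strand). It stood at 313, 293, 316, 160.1 and 90.9 CPM in Tumor and at 19.4, 55.1, 10.3, 129 and 11.3 CPM in WT. WT replicate 4 lay above Tumor replicate 5, and every other WT library lay under every Tumor library. The means were 235 ± 103 and 45.1 ± 50.5 CPM (SD, n = 5), and the log2 fold change of 2.38 ± 0.74 had the smallest p of the 31 genes without passing (edgeR, adjusted p = 0.120). It passed upward in 5 of the 20 alternatives: DESeq2, limma voom, no low count filter, without WT replicate 4 (3.31, adjusted p = 0.0279, 1.84% of all genes called) and without WT replicates 3, 4 and 5. Its adjusted p over the 20 ran from 0.00561 to 0.398. Tulp2 on the other strand shares 717 bases with its span and had 2 to 83 reads. Early response genes, summed over 12 of them (Fos, Jun and Egr1 included), stood at 4314 to 6577 CPM in Tumor and at 288 to 4673 CPM in WT. Junb, Ier3, Dusp1, Nr4a1 and Socs3 lay entirely higher in Tumor. Fos, Fosb, Jun, Egr1, Ier2, Btg2 and Zfp36 overlapped between groups, and Fos, Jun and Egr1 were highest of all libraries in WT replicate 2. The part of early response genes in the Ppp1r15a values was not tested.

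The other 3 genes of this arm were low. Trib3, a pseudokinase induced by ATF4 and CHOP, had 1 to 110 reads in Tumor and 4 to 14 in WT, or 0.229 to 17.9 and 0.936 to 5.90 CPM. Asns, asparagine synthetase, had 2.13 to 14.5 CPM in Tumor and 0.469 to 30.8 CPM in WT, a log2 fold change of -0.70 ± 0.90 (edgeR, adjusted p = 0.723). Chac1, a glutathione-degrading enzyme, had 4 to 6 reads in Tumor replicates 1 to 4, 70 reads in Tumor replicate 5 and 0 to 37 reads in WT. Its 0 reads in WT replicate 3 allow up to 1.79 CPM of the library total. Limits of this kind cover counting error only, since reads carry no molecular identifiers.

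The cytosolic heat shock genes held 56.7 to 59.9% of the reads of the 32 genes in Tumor and 39.9 to 56.1% in WT. None of the 10 was called, and 9 had positive values with a median over the 10 of 1.46, where 43.8% of all tested genes were positive. At an unadjusted p below 0.05 there were 4 (Hspa1b, Hsp90aa1, Hsph1 and Dnaja1), or 40.0%, beside 16.1% of all tested genes. Hsp90ab1, the constitutive cytosolic HSP90 (ENSMUSG00000023944, chromosome 17, 45567775 to 45573271, minus strand), had the highest level per kilobase of all 32 genes, 625 CPM per kilobase in Tumor and 228 in WT. It stood at 1986, 1758, 2268, 1551 and 1809 CPM in Tumor and at 707, 1707, 267, 649 and 80.7 CPM in WT. WT replicate 2 lay above Tumor replicate 4, and the other 4 WT libraries lay under all of Tumor. The log2 fold change was 1.46 ± 0.79 (edgeR, adjusted p = 0.371).

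Hsp90aa1, the stress-inducible HSP90 (chromosome 12, 110690605 to 110702728), stood at 787, 877, 1088, 655 and 947 CPM in Tumor and at 207, 559.5, 240.4, 418 and 64.9 CPM in WT. The groups did not overlap, with WT replicate 2 again the nearest, and the log2 fold change was 1.55 ± 0.69 (edgeR, adjusted p = 0.280). The ratio of Hsp90aa1 to Hsp90ab1 reads, which does not depend on library scaling, was 0.396 to 0.524 in Tumor. In WT it was 0.293 and 0.328 in replicates 1 and 2 and 0.644 to 0.900 in replicates 3 to 5. All 5 Tumor libraries thus lay between these WT values. Hspa8, the constitutive HSC70 that also uncoats clathrin vesicles, gave 993 to 1739 CPM in Tumor, 1286 CPM in WT replicate 2 and 26.8 to 576 CPM in the other WT libraries.

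Dnaja1, an HSP40 co-chaperone of HSP70 (ENSMUSG00000028410, chromosome 4, 40722150 to 40737149), was among the 4 genes without overlap. It stood at 277, 208, 298, 336 and 181 CPM in Tumor and at 72.8, 143, 62.9, 90.3 and 35.8 CPM in WT, with means of 260.0 ± 63.8 and 80.9 ± 39.8 CPM (SD, n = 5). The log2 fold change was 1.68 ± 0.57 (edgeR, adjusted p = 0.156), and the range over the 10 fits that left out a library was 1.497 to 2.01. It was called higher by DESeq2 (adjusted p = 0.0293) and without WT replicates 1 and 2 (adjusted p up to 0.314 over all alternatives). Scaled to T cell genes, Dnaja1 was called lower. Smu1 on the other strand shares 608 bases with its span. Hsph1, an HSP110 that exchanges nucleotide on HSP70, stood at 37.7, 43.9, 48.0, 90.9 and 39.7 CPM in Tumor and at 11.9, 27.4, 7.04, 28.8 and 10.9 CPM in WT. No WT library reached a Tumor library, and Tumor replicate 4 stood above the rest (1.59 ± 0.54, edgeR, adjusted p = 0.159).

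The strictly inducible HSP70 genes were low in both groups. Hspa1a and Hspa1b are near-identical neighbours on chromosome 17 (34969190 to 34972156 and 34956436 to 34959238). Of all 50-base windows of their longest GENCODE M21 transcripts, 58.8% of those of Hspa1a and 62.3% of those of Hspa1b were shared, so the division of reads between them is uncertain. Hspa1a stood at 7.02, 3.32, 15.9, 32.3 and 3.67 CPM in Tumor and at 4.21, 0, 8.92, 6.55 and 6.35 CPM in WT. Its 0 reads in WT replicate 2 allow up to 0.357 CPM of the library total, in the deepest of the 10 libraries. Hspa1b stood at 21.4, 8.70, 11.8, 54.8 and 16.1 CPM in Tumor and at 3.28, 2.07, 16.4, 1.82 and 3.18 CPM in WT. Tumor replicate 4 was the highest for both genes, and for Hspa1b WT replicate 3 lay inside the Tumor range. Log2 fold changes were 1.28 ± 1.03 and 2.10 ± 0.82 (edgeR, adjusted p = 0.552 and 0.219). Summed over the pair, reads came to 0.0121 to 0.0660 of those of Hspa8 in Tumor and to 0.00161 to 0.356 in WT, with WT replicates 3 and 5 the highest.

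The other 3 cytosolic genes overlapped between groups. Dnajb1, the inducible HSP40, gave 81.2 to 192 CPM in Tumor, 108 and 162 CPM in WT replicates 1 and 2 and 10.9 to 39.3 CPM in WT replicates 3 to 5. Bag3, an HSP70 co-factor in selective autophagy, gave 9.95 to 39.6 and 9.10 to 46.2 CPM, a log2 fold change of 0.14 ± 0.62 (edgeR, adjusted p = 0.929) whose sign turned with RLE factors (-0.034). Hspb1, the small heat shock protein HSP27, had 0 reads in Tumor replicates 1 and 2 and in WT replicate 3, up to 91 reads elsewhere in Tumor and up to 66 in WT. These 0 counts allow up to 0.769, 0.982 and 1.79 CPM of the library totals.

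Hspd1 (HSP60) and Hspe1 (HSP10) form the chaperonin of the mitochondrial matrix. Hspe1 stood at 109, 131, 155, 141 and 223 CPM in Tumor and at 197, 195, 2.35, 56.8 and 47.2 CPM in WT, and Hspd1 at 114, 94.9, 127, 103 and 133 CPM in Tumor. In WT, Hspd1 stood at 98.3, 172, 50.7, 26.6 and 16.8 CPM. For Hspe1, WT replicates 1 and 2 lay above 4 of the 5 Tumor libraries, whereas the other WT libraries lay under all of Tumor. Log2 fold changes were 0.64 ± 0.60 for Hspd1 and 0.60 ± 0.74 for Hspe1 (edgeR, adjusted p = 0.608 and 0.712). The ratio of Hspe1 to Hspd1 reads was 0.958 to 1.67 in Tumor and 0.0463 to 2.81 in WT, where the low end is WT replicate 3 with 5 and 108 reads. The deposited spans of the pair share 112 bases on opposite strands.

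The WT libraries varied more than the Tumor libraries. Of the 28 members at a mean of 10 CPM or more, all 28 had a larger coefficient of variation in WT than in Tumor (medians 84.7% and 28.8%), and 69.4% of 13658 tested genes at that level did (medians 71.3% and 50.4%). WT replicate 2 was the highest WT library for 24 of the 32 genes, where it was so for 25.3% of all tested genes. It was at or above the lowest Tumor library in 25 of 32 genes (78.1%, beside 84.5% of all tested genes), and WT replicate 1 in 18 (56.3%, beside 85.1%). WT replicates 3, 4 and 5 were so in 7, 8 and 7 genes, or 21.9%, 25.0% and 21.9%, beside 69.8%, 77.0% and 73.4% of all tested genes. The shares of the members lay furthest under those of all genes in these 3 libraries. They are not matched for level. The set at a mean of 10 CPM or more held 28 of the 32 members but 13658 of the 21414 tested genes. The part of expression level in the gap was not tested. WT replicate 2 also had the highest sums in WT of epithelial genes and of the early response genes, which sorting and digestion can induce (4673 CPM, with 288 to 2104 CPM in the other WT libraries). Left-out libraries moved the result in opposite directions. Without WT replicate 2 alone, the log2 fold changes of 16 of 31 genes were over 1.5 times larger, among them Creld2 at 2.19, Dnajb11 at 2.10, Pdia3 at 2.21 and Hspa8 at 2.42, and that of Asns was -0.016. Hspa1b was 3.15 without WT replicate 3, Hspa1a was 0.60 without Tumor replicate 4 and Trib3 was 0.95 without Tumor replicate 3. Without WT replicates 1 and 2 the median was 1.94 and 11 genes were called higher, with 7.90% of all genes called. Without WT replicates 3, 4 and 5 the median was 0.21, 22 of 32 genes were positive and Ppp1r15a alone was called, with 4.41% of all genes called.

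**Figure D4:**
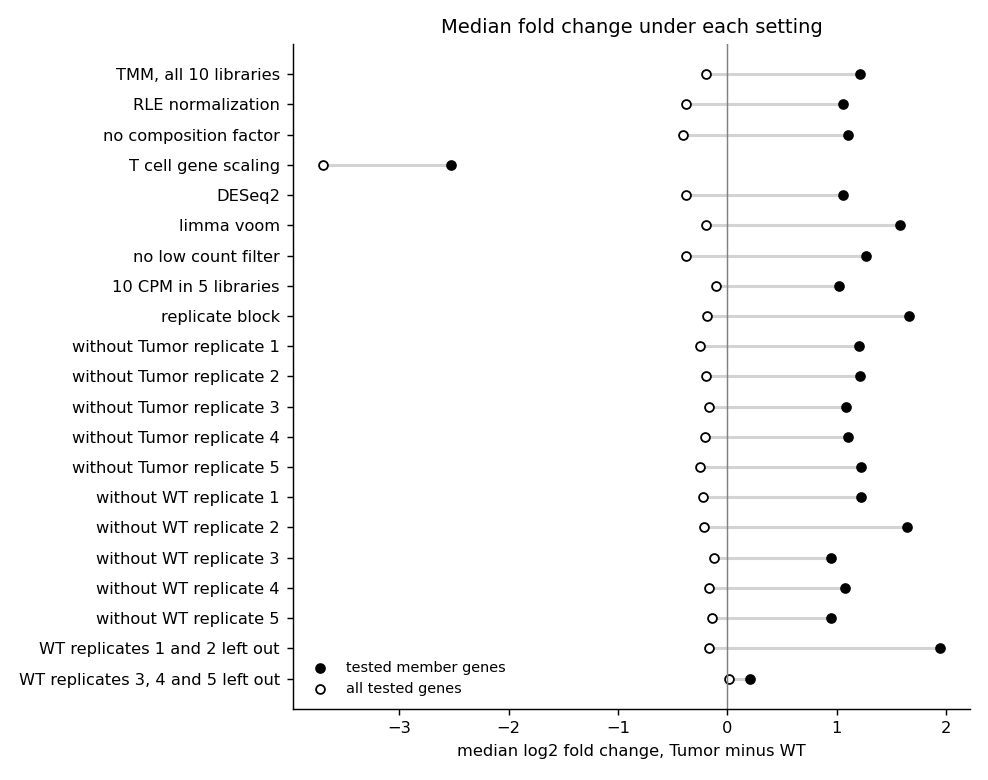
Median log2 fold change, Tumor minus WT (x axis), of the tested members (filled) and of all tested genes (open) under each setting (y axis). The members' median lies above that of all genes in every setting shown, by 0.19 without WT replicates 3, 4 and 5 and by 1.07 to 2.11 in the others. Settings that change only the scaling shift both medians together, so they cannot test this gap.

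Other genes of these pathways, 126 in all and 122 tested, gave 2 calls, both higher in Tumor, or 1.64% beside the 1.59% of all tested genes. That share is near the background. The sensors and transcription factors gave 0 calls among 16. Ern1, which encodes IRE1, gave 0.71 ± 0.53, and Eif2ak3, which encodes PERK, gave -0.57 ± 0.89 (edgeR, adjusted p = 0.514 and 0.775). Xbp1 stood at 28.9 to 164 CPM in Tumor and 3.63 to 168 CPM in WT, with WT replicate 2 highest of all. Gene counts do not tell spliced from unspliced Xbp1. Atf4 gave 75.8 to 300.1 and 12.2 to 222 CPM, and Ddit3, which encodes the pro-apoptotic factor CHOP, gave 22.7 to 36.1 and 3.18 to 31.4 CPM, none of these 3 passing (edgeR, adjusted p = 0.602 to 0.795).

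Atf6 and Hsf1 were the sensors or factors whose groups did not overlap, 2 of 16 or 12.5%, beside 4.38% of all tested genes that lay entirely higher in Tumor. Hsf1, the heat shock factor itself, stood at 51.1, 39.8, 69.1, 48.8 and 75.5 CPM in Tumor and at 15.2, 20.9, 9.86, 34.9 and 23.6 CPM in WT, with a log2 fold change of 1.44 ± 0.49 (edgeR, adjusted p = 0.158). Atf6 stood at 54.7 to 69.6 CPM in Tumor and at 28.8 to 47.2 CPM in WT (0.74 ± 0.44, adjusted p = 0.407). For these genes WT replicate 2 was not the highest WT library, unlike for most of the 32 members.

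**Figure D5:**
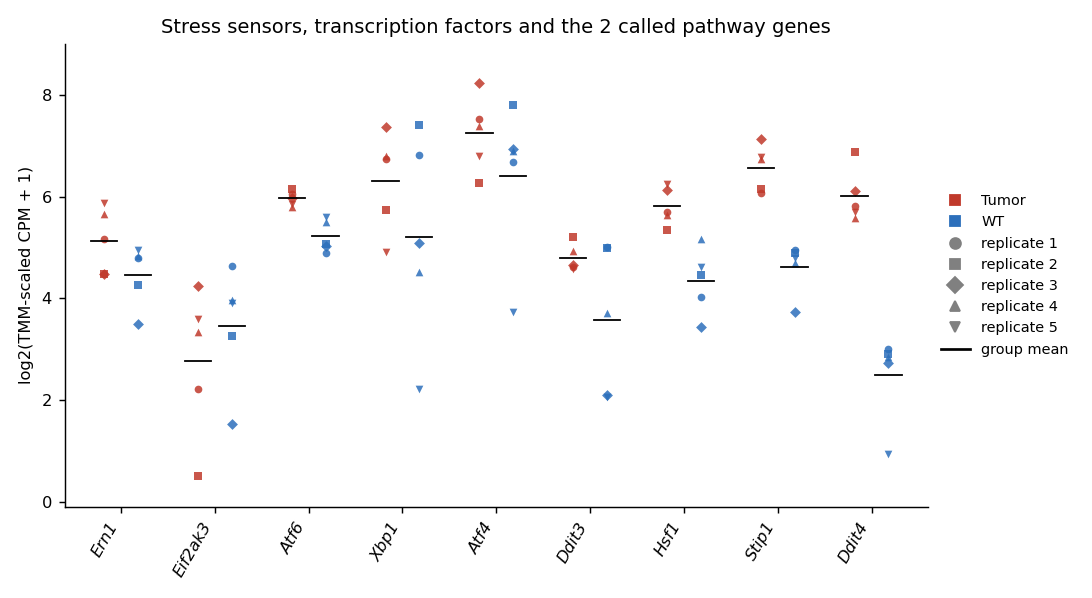
Level as log2(TMM-scaled CPM + 1) (y axis) of 7 sensors and factors and of Stip1 and Ddit4 (x axis) in each library, Tumor in red and WT in blue, with a bar for the group mean. Hsf1, Atf6, Stip1 and Ddit4 show no overlap between groups, while Xbp1, Atf4 and Ddit3 overlap.

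The calls were Stip1, among 34 tested cytosolic chaperone genes, and Ddit4, among 26 genes of the integrated stress response. Stip1 encodes HOP, the adaptor that passes clients from HSP70 to HSP90. It stood at 65.8, 70.0, 139, 106 and 108 CPM in Tumor and at 29.7, 28.6, 12.2, 24.7 and 26.8 CPM in WT, so that the groups were well apart. The log2 fold change was 1.999 ± 0.48 (edgeR, adjusted p = 0.0417), and it was called in 1 of the 10 fits that left out a library, the one without WT replicate 2 (adjusted p up to 0.133, log2 fold change 1.86 to 2.13). Scaled to T cell genes, Stip1 was called lower (-1.67 ± 0.76). Ddit4, an inhibitor of mTORC1 induced by ATF4 and by low oxygen, stood at 46.7 to 117 CPM in Tumor and at 0.907 to 7.02 CPM in WT. Its log2 fold change of 3.66 ± 0.60 (edgeR, adjusted p = 0.00612) held in all 10 such fits and was 0.15 ± 0.94 with T cell gene scaling. None of 36 tested ER genes and none of 11 mitochondrial genes passed (6 and 0 at an unadjusted p below 0.05, where the 6 are 16.7% beside 16.1% of all tested genes), with medians of 0.30 and 0.29. Of the 36 ER genes, 26 had positive and 10 had negative log2 fold changes. Among the 6, Hyou1 and Pdia5 were lower in Tumor (-1.71 ± 0.74 and -1.86 ± 0.71, edgeR, adjusted p = 0.263 and 0.208). Ero1l, Spcs2, Hspa13 and Lman1 were higher. The medians were 0.60 for the sensors and factors, 0.29 for the integrated stress response genes and 0.87 for the cytosolic chaperones.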

How the data were processed

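Raw read counts per gene for 10 Treg libraries were used as the authors deposited them, with no normalization, for 54532 genes. Per the submitters' processing notes, the tools include featureCounts 1.5.0-p3 and HISAT2 2.0.5, with the build mm10. How strand, annotation release and reads with several positions were treated is not given in the sources used here. The 10 single-library files hold the same counts. Groups and replicate numbers came from sample titles. No library pair agreed within sampling noise (45 pairs, smallest chi-square per degree of freedom 25.7).

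Genes were kept by filterByExpr (minimum count 10, minimum total 15), scaled by TMM and tested with edgeR 4.0.16 in R 4.3.3 (2-sided quasi-likelihood test with robust fitting on group alone), with Benjamini-Hochberg adjustment over 21414 genes and calls at 0.05. The standard error is the log2 fold change divided by the square root of F. The procedure was tested on simulated data. DESeq2 1.42.0, limma 3.58.1 voom, other scalings, filters and left-out libraries served as alternatives. The members, gene lists, alternatives and the rule for named genes were chosen with earlier results of these data known. The rule gives values in all libraries for called members, members without overlap between groups, the most abundant member per kilobase and the smallest p in each role group, and Hspa1a and Hspa1b. Replicate numbers gave no sign of pairing: the correlation of deviations of same-numbered libraries was -0.126 to 0.038. With differences as large as those among the WT libraries, a shared batch could go unseen by this measure. The counts limit precision in WT replicates 3 to 5, the shallowest libraries, of whose counts 9.92 to 26.5% belong to the predicted gene Gm10800.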

Additional observations from a re-analysis of the deposited data

Results flagged for a closer look

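In 8 of 64 groups (32 genes, 2 groups of 5 libraries) a single library stood apart by a gap of more than 0.71 of the group's range, where chance gives about 1 group in 20 for normally distributed values. By the same measure on CPM, which is skewed, 13.7% of the groups of all tested genes had such a library, 95.1% of them at the high end, beside 12.5% here with 7 of 8 at the high end. Pdia4 stood at 61.1 CPM in WT replicate 2, with 11.5 CPM in the next WT library. Herpud1 stood at 40.2 CPM in Tumor replicate 1, with 103 CPM in the next. Chac1 and Hspb1 stood at 16.1 and 20.9 CPM in Tumor replicate 5, with 2.07 and 4.71 CPM in the next Tumor libraries, and Hspb1 stood at 29.9 CPM in WT replicate 5 with 3.87 CPM in the next. Hspa1b and Hsph1 stood at 54.8 and 90.9 CPM in Tumor replicate 4, with 21.4 and 48.0 CPM in the next. Hspa1b stood at 16.4 CPM in WT replicate 3, with 3.28 CPM in the next.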

How the results depend on the processing

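Calls among the 32 genes depended on the tool and on single WT libraries. The count of 0 became 2 with DESeq2, 1 with limma voom, 1 without the low count filter, 22 (all lower) with T cell gene scaling, 11 without WT replicates 1 and 2 and 1 without WT replicates 3, 4 and 5, and it was 0 to 1 when a single library was left out. Over all genes, 340 calls became 1651, 820, 19690, 1993 and 1325 with DESeq2, no filter, T cell gene scaling and the respective WT sets left out, and 65 to 417 when a library was left out. The 2 related genes called became 1 with RLE factors, on total counts, without the filter and with the replicate block, 3 with limma voom, 7 with DESeq2 (2 lower), 115 with T cell gene scaling (all lower), 28 (1 lower) and 6 (2 lower) without the WT sets, and 1 to 4 without single libraries. The members' median of 1.21 was -2.53 with T cell gene scaling and 0.21 without WT replicates 3, 4 and 5, and 0.95 to 1.64 without single libraries. The causes were not tested. With the replicate number as a block, which the data do not bear out as a pairing, 0 members and 141 of all genes were called, and the members' median was 1.66.

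Single genes changed sign as follows. With T cell gene scaling the values were Hspa5 -1.92, Hsp90b1 -2.27, Dnajb9 -3.38, Dnajb11 -2.58, Dnajc3 -2.91, Sdf2l1 -3.01, Calr -2.39, Canx -2.85, Pdia3 -2.53, Pdia4 -1.87, Pdia6 -3.06, Creld2 -2.32, Manf -2.70, Herpud1 -3.07, Edem1 -1.996, Sel1l -3.37, Trib3 -2.15, Ppp1r15a -0.62, Hspa1a -2.18, Hspa1b -1.10, Hspa8 -2.16, Hsp90aa1 -1.70, Hsp90ab1 -2.01, Hsph1 -1.70, Dnaja1 -1.75, Dnajb1 -2.64, Bag3 -3.33, Hspd1 -2.97 and Hspe1 -3.22. Without WT replicates 3, 4 and 5 they were Dnajb9 -0.33, Sdf2l1 -0.20, Pdia6 -0.24, Herpud1 -0.095, Sel1l -0.19, Hspb1 0.61, Dnajb1 -0.0071, Bag3 -0.50, Hspd1 -0.27 and Hspe1 -0.37, and without WT replicates 1 and 2 Asns 0.34. With RLE factors they were Sel1l -0.021 and Bag3 -0.034, with DESeq2 Sel1l -0.021 and Bag3 -0.034, at 10 CPM in 5 libraries Sel1l -0.11 and Bag3 -0.077, and on total counts Sel1l -0.088. Leaving out single libraries gave -0.0024 to 0.45 for Sel1l, -2.35 to 1.10 for Hspb1 and -0.11 to 0.68 for Bag3, and no other gene changed sign there. Low counts limit Sdf2l1, Trib3, Asns, Chac1, Hspa1a and Hspb1, each with a library at 1 read or fewer. For Hspa1a that library was WT replicate 2, the deepest. The counts of Gm10800 take up to 26.5% of a library in WT replicates 3 to 5.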
